A study of Mus musculus with 26 samples.

Results

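Gas5 and 6 further noncoding transcripts that carry small nucleolar RNAs in their introns, Snhg1, Snhg3, Snhg5, Snhg8, Snhg12 and Snhg15, were followed through heat, oxidative and osmotic stress in mouse fibroblasts. The 7 host transcripts were taken by symbol from a table of 20430 gene symbols, all 7 were present, and all 7 passed the filter on low counts in both experiments. The cells were NIH3T3, an established line of mouse embryonic fibroblasts, and the polyadenylated RNA of 16 libraries was sequenced, 2 for each of 8 groups. The heat experiment held an untreated control, cells kept at 44 °C for 2 h and cells kept at 42 °C for 8 h. The other experiment held 1 control for both chemicals, H2O2 (hydrogen peroxide, an oxidant) for 2 h or 7 h, and KCl (potassium chloride, which makes the medium hyperosmotic) for 2 h or 7 h. The labels carry no concentration for H2O2 or KCl, and no group carried a mutation or transgene.

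A snoRNA host gene is transcribed and spliced like a messenger RNA. The introns release small nucleolar RNAs, which guide the chemical modification and processing of ribosomal RNA. The exons are joined into a host RNA that, for many of these genes, carries only short reading frames. Gas5 (growth arrest specific 5) is the classic example. Its spliced RNA begins with a pyrimidine tract like that of ribosomal protein messenger RNAs, is engaged by ribosomes, and is then destroyed by nonsense-mediated decay (NMD), the pathway that removes RNAs with early stop codons. Such host RNAs are known to accumulate when translation is blocked or growth stops.

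Each library held 24441900 to 45244400 expected counts (reads assigned to genes), and the libraries of a group correlated at 0.996 to 0.998 across genes on the log2 CPM scale. The labels do not say that the 2 libraries of a group came from separate cultures, so p-values measure the spread between these libraries, which may be technical. The 8 fibroblast markers summed to 4147 to 11280 TPM (transcript level corrected for transcript length and library size), and each was at 7.6 TPM or more in every library. The 12 markers of other cell types summed to 9.72 to 85.9 TPM, and 5 of them stayed below 1 TPM in every library.

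In the RefSeq annotation of mouse build GRCm38.p6 all 7 genes are annotated as lncRNA, and together they contain 26 snoRNA genes. Gas5 lies at chr1:161034601-161038539 on the plus strand, has 8 annotated transcripts and encloses 8 snoRNA genes. Snhg1 lies at chr19:8723487-8726326 on the plus strand and also encloses 8. Snhg12, at chr4:132308678-132311024 on the plus strand, encloses 4, namely Snora16a, Snora44, Snora61 and Snord99. Snhg3, at chr4:132351933-132353686 on the minus strand, encloses Snora73a and Snora73b. Snhg5, at chr9:88521052-88522897 on the minus strand, encloses 2. Snhg8, at chr3:123507552-123508336 on the minus strand, encloses Snora24, and Snhg15, at chr11:6525591-6528760 on the minus strand, encloses 1.

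The start sites are shown because a pyrimidine tract at the first base is the feature that the textbook example shares with ribosomal protein messenger RNAs. Each RefSeq sequence below runs from 20 bases before the annotated start to 20 bases from it, 5′ to 3′ on the gene's strand. Capitals mark a stretch of at least 5 C or T bases read onward from a C at the annotated start or, failing that, from the nearest such C within 5 bases of it; pyrimidines before that C are not marked. A sequence without capitals has no such stretch. Gas5 has 2 annotated starts.
Gas5 first start, chr1:161034581-161034620: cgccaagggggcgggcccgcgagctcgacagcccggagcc
Gas5 second start, chr1:161035146-161035185: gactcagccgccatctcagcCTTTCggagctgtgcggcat
Snhg12, chr4:132308658-132308697: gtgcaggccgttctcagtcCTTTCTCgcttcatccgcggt
Snhg8, chr3:123508317-123508356: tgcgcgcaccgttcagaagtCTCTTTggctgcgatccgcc
Snhg3, chr4:132353667-132353706: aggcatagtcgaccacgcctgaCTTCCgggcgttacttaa
Snhg1, chr19:8723467-8723506: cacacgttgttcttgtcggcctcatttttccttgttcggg
Snhg5, chr9:88522878-88522917: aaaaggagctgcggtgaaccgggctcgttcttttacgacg
Snhg15, chr11:6528741-6528780: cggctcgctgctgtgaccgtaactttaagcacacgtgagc
The annotated transcript itself opened with such a stretch, its first base being the C, in 2 of the 7 genes, Gas5 and Snhg8, against 14 of 58 ribosomal protein genes with a sequence in the table and 3.01% of all 27025 genes. Within 5 bases of a start it was found in 4 of the 7 host genes, in 28 of the 58 ribosomal protein genes and in 21.2% of all genes. Of 12 other noncoding snoRNA host genes with a sequence, 1 opened with such a stretch and 4 had it within 5 bases. These are letters in an annotation; start sites were not measured in these libraries.

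A second set of sequences is shown because the starts of Gas5 and Snhg15 both hold the palindrome TGACGTCA, the letters of the cAMP response element bound by CREB and ATF family factors. Capitals mark these 8 bases. Snhg1, Snhg5, Snhg8 and Snhg12, which also rose at 7 h of H2O2, do not hold it in their windows, and neither does Snhg3. Its part in any change was not tested. In Gas5 it opens 46 bases before the second start and in Snhg15 88 bases before the start.
Gas5: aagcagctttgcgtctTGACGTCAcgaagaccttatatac
Snhg15: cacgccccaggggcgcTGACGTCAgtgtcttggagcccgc
Windows of 300 bases around the starts were searched on both strands, and TGACGTCA was present in 2.03% of all genes. The E-box CACGTG was found in Snhg15 alone among the 7, and in 8.09% of all genes. The antioxidant element core TGACNNNGC was found in Snhg8 alone, and in 14% of all genes. Neither the heat shock element core GAANNTTC, present in 9.04% of all genes, nor TGATGNAA, the core of the composite element bound by ATF4, present in 4.51%, was found in any of the 7. TATAAA was present in the windows of Snhg1, Snhg3, Snhg5 and Snhg8 and in 15.7% of all genes. In Snhg5 and Snhg8 it lay on the gene's strand 23 and 30 bases before the start, in Snhg1 on the opposite strand 29 bases before it, and in Snhg3 after the start. The motifs were picked for this family with its changes known, and a match is a description of letters, not a bound site.

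In unstressed cells Gas5 was the most abundant of the 7 host RNAs. Its level was 174 and 173 TPM in the 2 heat controls and 148 and 155 TPM in the 2 controls for H2O2 and KCl. Snhg1 and then Snhg3 followed in both control groups, each apart from its neighbours in the order. Snhg15 was lowest, at 14.7 to 19.5 TPM over the 4 control libraries. In the heat controls Snhg12 and Snhg5 overlapped, and in the other controls Snhg8 and Snhg15 did. The 7 RNAs summed to 406 and 433 TPM in the heat controls and to 430 and 465 TPM in the other controls. The sum was 619 and 620 TPM at 44 °C, 685 and 733 TPM at 42 °C, 779 and 826 TPM at 2 h of H2O2, and 969 and 990 TPM at 7 h. It was 439 and 448 TPM at 2 h of KCl and 307 and 366 TPM at 7 h. Every library of heat or H2O2 therefore stood above its own controls in this sum, and both libraries at 7 h of KCl stood below theirs. These are levels in bulk RNA relative to all other transcripts, and a lower total of other RNA per cell and a higher level of a host RNA cannot be told apart.

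**Figure D1:**
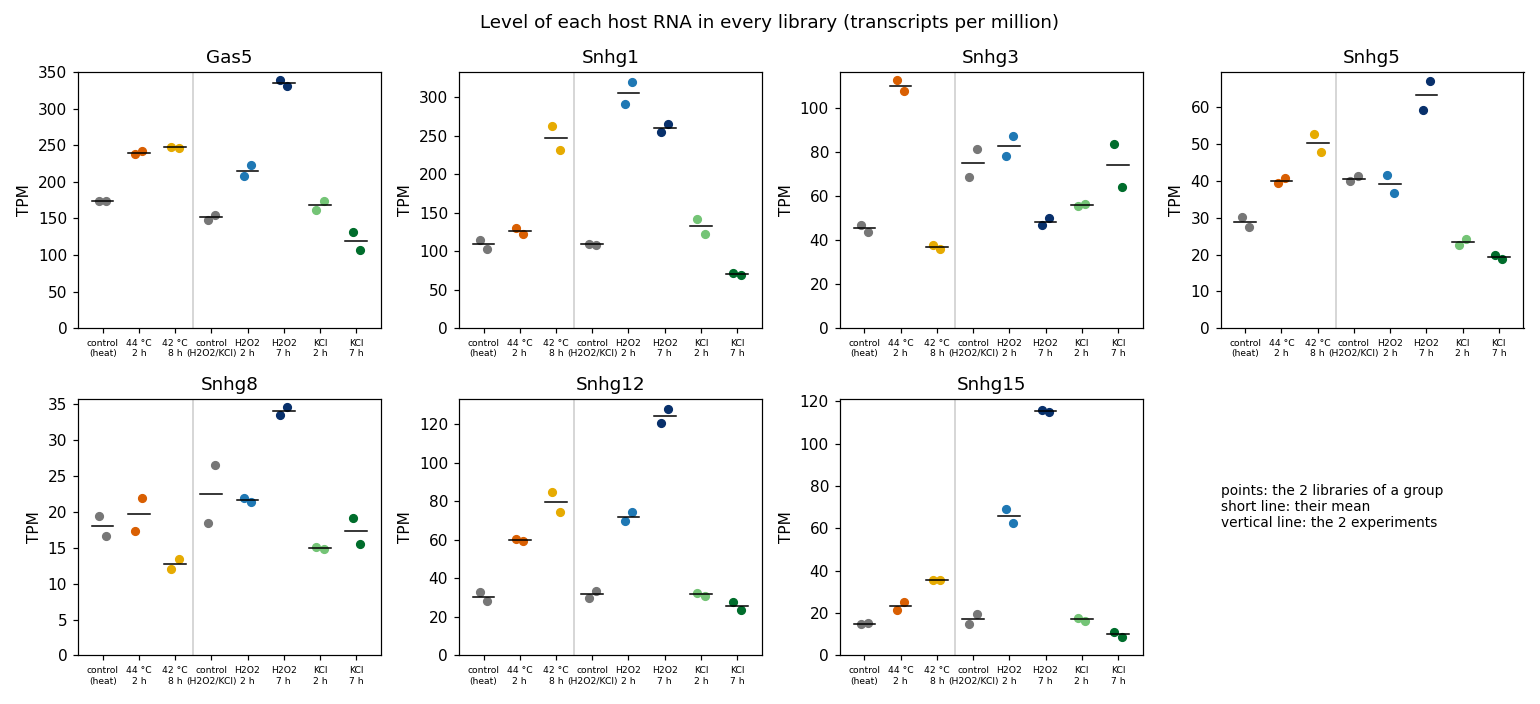
Level of each of the 7 host RNAs (y axis, TPM, starting at 0) in the 8 groups (x axis); points are the 2 libraries of a group and short lines their mean. Snhg15 at 7 h of H2O2 stands at 115 and 116 TPM against 15.02 and 19.5 TPM in its controls, while its KCl libraries lie between 8.9 and 17.8 TPM.

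Fold changes were estimated from the counts with edgeR's quasi-likelihood test over all genes, and a change was called at a Benjamini-Hochberg adjusted p under 0.05. They are given on the log2 scale, stress minus control, with the standard error. Over 7 RNAs and 6 stresses, 21 of the 42 values were called higher, 7 lower and 14 not called.

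Gas5 rose in both heat treatments and at both times of H2O2, and fell at 7 h of KCl. At 44 °C it was at 238 and 242 TPM and at 42 °C at 248 and 246 TPM, against 174 and 173 TPM in the controls, without overlap. The log2 fold changes were 0.32 (SE 0.05, adjusted p = 1.90e-05) and 0.34 (SE 0.05, adjusted p = 1.69e-05). The direct contrast of 42 °C for 8 h with 44 °C for 2 h, in which temperature and duration changed together, was 0.02 (SE 0.05, adjusted p = 0.72) and was not called. H2O2 gave 207 and 223 TPM at 2 h and 339 and 330.5 TPM at 7 h, so that the levels of the controls, of 2 h and of 7 h formed 3 separate steps. The changes were 0.40 (SE 0.07) and 0.94 (SE 0.07, adjusted p = 3.40e-08), the latter a 1.91-fold rise. KCl gave 161 and 174 TPM at 2 h, with a change of 0.06 that was not called, and 132 and 107 TPM at 7 h, a change of -0.43 (SE 0.08, adjusted p = 0.000141). Ordered over all 8 groups, Gas5 was highest at 7 h of H2O2 and lowest at 7 h of KCl, with the heat controls and 2 h of KCl the only neighbours that overlapped.

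Snhg15 had the widest range of the 7, its highest group mean being 11.6 times its lowest. It rose from 15.02 and 19.5 TPM in the controls to 69.1 and 62.6 TPM at 2 h of H2O2 and 116 and 115 TPM at 7 h. The log2 fold changes were 1.94 (SE 0.12, adjusted p = 1.10e-08) and 2.83 (SE 0.12, adjusted p = 3.51e-11), or 3.85-fold and 7.13-fold. Heat raised it less: from 14.7 and 15.1 TPM to 21.4 and 25.3 TPM at 44 °C (0.58, SE 0.13) and to 35.7 TPM in both libraries at 42 °C (1.45, SE 0.12). At 7 h of KCl it was at 10.96 and 8.9 TPM, below every control library, with a change of -0.67 (SE 0.16, adjusted p = 0.00227). After 2 h in KCl it was at 17.8 and 16.2 TPM, within the range of the controls. Its counts in KCl were low, 49 to 107 per library.

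Snhg12, host of 4 named snoRNAs, followed a similar course from a higher start. It stood at 32.7 and 28.1 TPM in the heat controls, 60.3 and 59.5 TPM at 44 °C and 84.8 and 74.6 TPM at 42 °C. The changes were 0.91 (SE 0.10, adjusted p = 1.21e-06) and 1.58 (SE 0.09, adjusted p = 5.60e-09). From 29.9 and 33.5 TPM in the other controls it went to 69.6 and 74.5 TPM at 2 h of H2O2 and 120.5 and 128 TPM at 7 h. These were rises of 1.19 (SE 0.10, adjusted p = 1.78e-07) and 2.05 (SE 0.09, adjusted p = 1.08e-10), the latter 4.15-fold. Snhg12 was the only one of the 7 with 4 rises and no fall called over the 6 stresses. KCl left it at 32.6 and 31.1 TPM at 2 h and 27.9 and 23.7 TPM at 7 h, and neither change was called (0.13 and -0.18).

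Snhg1 separated the 2 heat treatments. At 44 °C for 2 h it was at 130.4 and 123 TPM against 115 and 103 TPM in the controls, a change of 0.15 (SE 0.08, adjusted p = 0.112) that was not called. At 42 °C for 8 h it reached 262 and 232 TPM, a change of 1.37 (SE 0.08, adjusted p = 2.99e-09). Without control replicate 1 the change at 44 °C passed the test (0.24, adjusted p = 0.0417). Under H2O2 it was already high at 2 h, at 291 and 321 TPM against 109.8 and 108 TPM, and at 7 h it was at 255 and 265 TPM. The changes were 1.49 (SE 0.08, adjusted p = 2.35e-09) and 1.33 (SE 0.08, adjusted p = 2.02e-09), and the contrast of 7 h with 2 h, -0.16 (SE 0.08, adjusted p = 0.0779), was not called. Snhg1 had the highest mean of the 7 in the 42 °C group and after 2 h in H2O2, although its libraries overlapped those of Gas5 at 42 °C. Snhg1 was also the only member called in opposite directions at the 2 times of KCl. It rose by 0.41 (SE 0.08, adjusted p = 0.000853) at 2 h, at 143 and 122 TPM, and fell by 0.52 (SE 0.09, adjusted p = 0.000120) at 7 h, at 72.2 and 69.15 TPM.

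Snhg5 rose in heat and late in H2O2 and fell in KCl. It went from 30.15 and 27.4 TPM to 39.4 and 40.7 TPM at 44 °C (0.41, SE 0.08, adjusted p = 0.000421) and to 52.7 and 47.8 TPM at 42 °C (0.99, SE 0.08, adjusted p = 9.97e-08). At 2 h of H2O2 it was at 41.5 and 36.8 TPM, on both sides of its controls at 40.01 and 41.3 TPM. At 7 h it was at 59.4 and 67.2 TPM, a rise of 0.72 (SE 0.09, adjusted p = 4.51e-06). In KCl it was the member with the largest fall at both times. It was at 22.7 and 24.3 TPM at 2 h (-0.69, SE 0.10, adjusted p = 3.89e-05) and 19.95 and 18.8 TPM at 7 h (-0.97, SE 0.10, adjusted p = 9.82e-07), all 4 libraries below the controls.

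Snhg3 rose in 1 stress and fell in 1. At 44 °C for 2 h it had the largest rise of the 7, from 47 and 43.4 TPM to 112 and 108 TPM, a change of 1.22 (SE 0.08, adjusted p = 9.53e-09) or 2.32-fold. At 42 °C for 8 h it was at 37.6 and 36.1 TPM (-0.11, not called). It was the only member lower at 7 h of H2O2, at 46.65 and 49.9 TPM against 68.5 and 81.3 TPM, a change of -0.55 (SE 0.13, adjusted p = 0.00163). Its changes at 2 h of H2O2 (0.15), 2 h of KCl (-0.28) and 7 h of KCl (0.10) were not called, and the libraries at 7 h of KCl, 83.5 and 64.1 TPM, lay on both sides of the controls. Its level is uncertain where reads could have been split between Snhg3 and Rcc1, which was not tested. Rcc1 encodes the exchange factor of the GTPase Ran, and RefSeq places it 6182 bases downstream on the same strand. Rcc1 held 3.03 to 16.02 times the counts of Snhg3. A sum of both therefore follows Rcc1, which rose by 1.01 (SE 0.06) at 7 h of H2O2.

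Snhg8 had the smallest range of the 7, its highest group mean being 2.68 times its lowest. It rose only at 7 h of H2O2, to 33.5 and 34.6 TPM from 18.4 and 26.5 TPM, a change of 0.69 (SE 0.14, adjusted p = 0.000573); without control replicate 1 it was 0.45 (adjusted p = 0.0119). Its fall at 2 h of KCl, to 15.1 and 14.9 TPM (-0.46, SE 0.16, adjusted p = 0.0274), rested on single libraries. Without control replicate 1 the change was -0.70 (adjusted p = 0.00172), without control replicate 2 it was -0.20 (adjusted p = 0.314), and without KCl replicate 1 or 2 it was -0.47 or -0.45 and no longer called (adjusted p = 0.0686 and 0.0924). The libraries of 44 °C (17.4 and 21.9 TPM) and of 7 h of KCl (19.2 and 15.5 TPM) overlapped theirs. At 42 °C Snhg8 was at 12.02 and 13.4 TPM, below the controls at 19.4 and 16.7 TPM, but the change of -0.33 was not called (adjusted p = 0.0605); without heat control replicate 2 it was -0.43 and called (adjusted p = 0.0397). At 7 h of KCl the change of -0.25 was not called, and without control replicate 1 it was -0.49 and called (adjusted p = 0.00936).

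**Figure D2:**
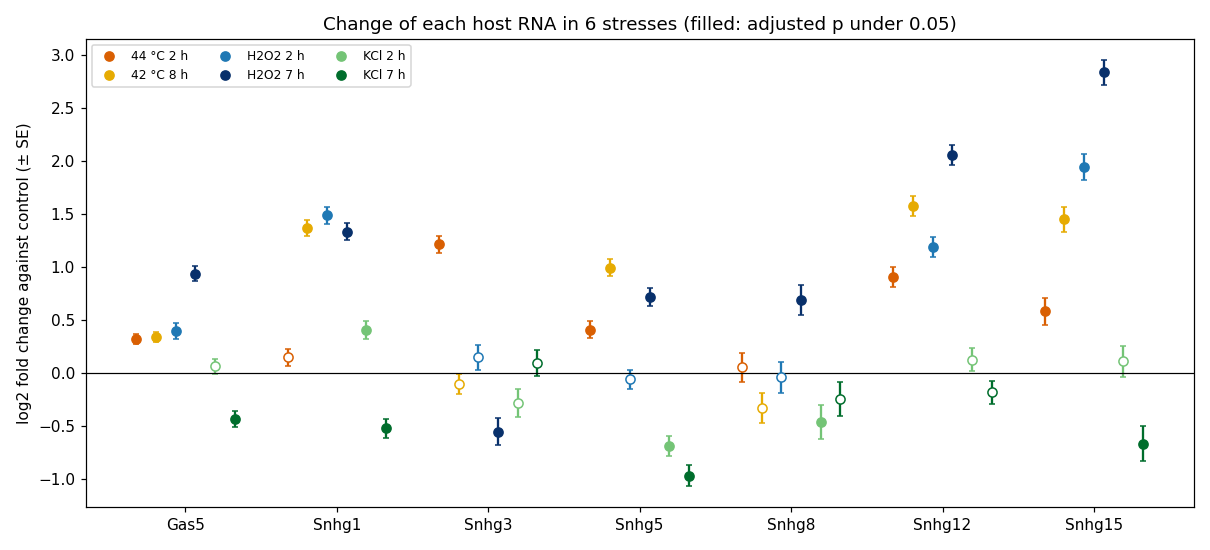
Log2 fold change against control (y axis, edgeR, bars ± SE) of the 7 host RNAs (x axis) in 6 stresses (colours); filled points have an adjusted p under 0.05. Snhg12 and Snhg15 reach 2.05 and 2.83 at 7 h of H2O2, and Snhg3 is the only filled point below 0 there.

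Read against all genes, the shares were as follows. At 44 °C 5 of 7 were higher and none lower, where 35.4% of 12747 tested genes were higher and 35.7% lower. At 42 °C 5 of 7 were higher and none lower, against 31.7% and 31.9% of genes. With other settings 5 to 7 of the 7 were called there. The further calls were falls of Snhg3 and Snhg8, whose changes reached -0.29 and -0.47. At 2 h of H2O2 4 of 7 were higher and none lower, against 27.3% and 26.5% of 13256 genes, and at 7 h 6 were higher and 1 lower, against 39.4% and 31.1%. KCl differed in balance: 1 higher and 2 lower at 2 h, against 27.2% and 27% of genes, and none higher and 4 lower at 7 h, against 37.2% and 31.6%. The median log2 fold change of the 7 was 0.41, 0.99, 0.40 and 0.94 in the 4 heat and H2O2 comparisons, where that of all genes lay between -0.01 and 0.08. In KCl it was 0.06 at 2 h and -0.43 at 7 h, where that of all genes was 0 and 0.04. A refit with limma on log2(TPM + 1), which changed both the test and the scale, moved the balance of all genes at 42 °C. Of called genes 23.6% were then higher, against 49.8%, and the median of all genes went from -0.01 to -0.16. Likewise, after 2 h in KCl, 36.1% of called genes were then higher, against 50.2%. Of the 28 calls against control, 27 remained in every refit of the 7 genes and without each library in turn, the exception being Snhg8 at 2 h of KCl.

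Markers of other cell types moved with some of these groups. Of the 8 tested, 5 were called higher at 2 h of H2O2 and 6 at 7 h, against 27.3% and 39.4% of all genes. Among them was Cd68, a lysosomal protein of macrophages, up by 2.17 at 7 h. The summed level of all 12 was 25.1 to 25.7 TPM in the controls, 53.6 to 54.8 TPM at 2 h of H2O2 and 82.9 to 85.9 TPM at 7 h. Over all libraries Cd68 reached 44.7 TPM and the neuronal tubulin Tubb3 32.7 TPM. The sum after 2 h in KCl was 28.4 to 31.04 TPM and at 7 h 9.72 to 10.35 TPM. It was 31.8 to 33.8 TPM in the heat controls, 26.9 to 26.96 TPM at 44 °C and 19.25 to 19.4 TPM at 42 °C. Myod1 of muscle was listed at 0 in both libraries of 7 groups, and Ptprc of blood cells did not exceed 0.05 TPM in any library. All 8 fibroblast markers were called lower at 44 °C and at 7 h of H2O2, against 35.7% and 31.1% of all genes. At 42 °C 5 were lower and 2 higher, and after 2 h in H2O2 4 and 1. After 2 h in KCl the counts were 0 and 5, and after 7 h in KCl 3 and 4. In the same order, 31.9%, 26.5%, 27% and 31.6% of all genes were lower, and 31.7%, 27.3%, 27.2% and 37.2% higher. The part of these shifts in the results was not tested.

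The direct contrast of H2O2 with KCl, which the design had not listed, removed the shared control from the comparison. At 2 h all 7 host RNAs were higher in H2O2, where 27% of genes were higher and 24.2% lower. The differences ran from 0.34 (SE 0.07) for Gas5 to 1.08 (SE 0.08) for Snhg1 and 1.83 (SE 0.13, adjusted p = 5.42e-08) for Snhg15. That of Snhg8 was at the threshold (0.42, adjusted p = 0.0493) and was lost without any 1 of the 4 libraries (adjusted p = 0.105 to 0.134). That of Snhg3 (0.43, adjusted p = 0.0135) was lost without H2O2 replicate 2 (0.35, adjusted p = 0.0942) or KCl replicate 1 (0.40, adjusted p = 0.0538). In the limma refit on log2(TPM + 1), 68.2% of called genes were higher in H2O2 at 2 h, against 52.7%. At 7 h 6 were higher and Snhg3 was lower (-0.65, SE 0.14; -0.42 without KCl replicate 1), where 41% of genes were higher and 37.4% lower. Gas5 then differed by 1.37 (SE 0.08, adjusted p = 5.34e-10), Snhg5 by 1.68 (SE 0.10), Snhg1 by 1.85 (SE 0.09), Snhg12 by 2.24 (SE 0.10) and Snhg15 by 3.50 (SE 0.14, adjusted p = 1.37e-11), an 11.3-fold difference.

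Between the early and the late time, more of the 7 rose than fell in H2O2, and more fell than rose in KCl. From 2 h to 7 h of H2O2, Gas5, Snhg5, Snhg8, Snhg12 and Snhg15 rose by 0.54 to 0.89 and Snhg3 fell by 0.70, that is 5 higher and 1 lower where 37.3% and 36.1% of genes were. From 2 h to 7 h of KCl, 5 were lower and 1 higher, against 33.7% and 35.1% of genes. The falls of Snhg1 (-0.93, SE 0.09), Snhg15 (-0.78, SE 0.17) and Gas5 (-0.49, SE 0.08) held without each library in turn. The others did not. Snhg3 (0.38) was lost without KCl 7 h replicate 1 (0.15, adjusted p = 0.371) or KCl 2 h replicate 1 (0.35, adjusted p = 0.0742). Snhg5 (-0.28) was lost without either 7 h library (adjusted p = 0.0513 and 0.164) or KCl 2 h replicate 2 (adjusted p = 0.155). Snhg12 (-0.31) was lost without KCl 7 h replicate 2 (-0.19, adjusted p = 0.219) or either 2 h library (adjusted p = 0.101 and 0.0554).

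The longer, milder heat differed from the shorter, stronger one in 6 of the 7: Snhg1, Snhg5, Snhg12 and Snhg15 were higher at 42 °C for 8 h and Snhg3 and Snhg8 lower, where 37.9% of genes were higher and 37.2% lower. Snhg1 (1.22, SE 0.08, adjusted p = 3.17e-09) and Snhg3 (-1.32, SE 0.09, adjusted p = 4.58e-09) lay at the ends of this range. The call for Snhg8 (-0.38) was lost without 42 °C replicate 1 (-0.31, adjusted p = 0.159) or 44 °C replicate 2 (-0.19, adjusted p = 0.301). In the limma refit on log2(TPM + 1), 28.9% of called genes were higher at 42 °C, against 50.4%, and the median of all genes was -0.20. Temperature and duration changed together in this pair of groups and cannot be told apart.

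Other noncoding snoRNA hosts moved in both directions. Of 13 tested at 44 °C, 6 were higher and 2 lower, where 35.4% and 35.7% of all genes were, with Snhg20 up by 2.20 (SE 0.12) and Snhg11 at -1.46 (SE 0.25). At 42 °C 4 were higher and 5 lower, against 31.7% and 31.9% of genes, and Snhg20 was at -0.45. Of 12 tested at 2 h and 7 h of H2O2, 7 were higher at each time, against 27.3% and 39.4% of genes, led by Snhg16 (1.85, SE 0.09) and Snhg17 (1.55, SE 0.07) at 2 h and by Zfas1 (1.28, SE 0.08) at 7 h. In H2O2 1 was lower at 2 h and 2 at 7 h, against 26.5% and 31.1% of genes. Snhg18 was among those lower at 7 h (-2.09, SE 0.17). After 2 h in KCl 3 were higher and 6 lower, against 27.2% and 27% of genes, with Snhg10 at -1.24. At 7 h of KCl, where none of the 7 rose, 7 of the 12 were higher and 1 was lower, against 37.2% and 31.6% of genes. The higher ones were led by Snhg4 (1.83, SE 0.12) and Snhg20 (0.73, SE 0.12). Zfas1, a host RNA next to Znfx1, was higher in all 6 stresses, at 131 and 142 TPM at 44 °C against 75.6 and 73.7 TPM in the controls.

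Protein-coding hosts and ribosomal protein messenger RNAs were mostly called higher at 42 °C for 8 h and H2O2 for 7 h, and not at 7 h of KCl. Many of the protein-coding hosts are themselves ribosomal protein genes, so both lists share these genes and are not independent. All 79 ribosomal protein messenger RNAs were higher at 42 °C and 78 of 79 at 7 h of H2O2, with medians of 0.35 and 0.48. Of all genes 31.7% and 39.4% were higher there. After 2 h in H2O2, where Gas5, Snhg1, Snhg12 and Snhg15 were up, 1 was higher and 9 were lower, with a median of -0.06. Of all genes 27.3% were higher and 26.5% lower at that time. At 44 °C 4 were higher and 39 lower (median -0.12), and at 7 h of KCl 2 were higher and 18 lower (median -0.07). The shares of all genes were 35.4% and 35.7%, then 37.2% and 31.6%. Of 39 protein-coding snoRNA hosts, 35 rose at 42 °C and 34 at 7 h of H2O2, with medians of 0.36 and 0.45. Of all genes 31.7% and 39.4% rose. At 44 °C 7 hosts were higher and 18 lower, against 35.4% and 35.7% of genes. After 2 h in H2O2 13 of these hosts were higher and 4 lower, against 27.3% and 26.5% of genes. KCl gave 13 higher and 3 lower at 2 h, against 27.2% and 27%, and 8 and 6 at 7 h, against 37.2% and 31.6%. Taf1d, a subunit of the RNA polymerase I factor SL1, rose at 42 °C (1.22, SE 0.06) and after 2 h in H2O2 (1.34, SE 0.08). It also rose after 2 h in KCl (0.80, SE 0.08).

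**Figure D3:**
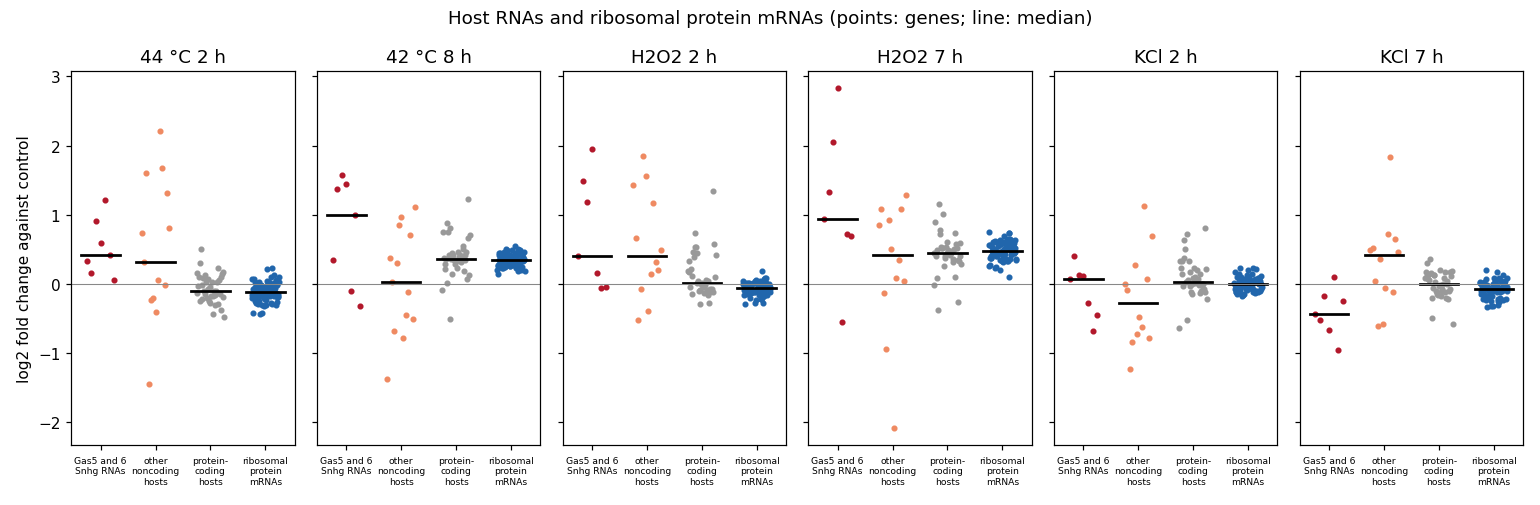
Log2 fold change against control (y axis) of the 7 host RNAs, the other noncoding hosts, the protein-coding hosts and the ribosomal protein messenger RNAs (x axis) in 6 stresses (panels); points are genes and lines medians. At 7 h of H2O2 the 7 host RNAs have a median of 0.94 and the ribosomal protein messenger RNAs one of 0.48. At 2 h the medians are 0.40 and -0.06. Ribosomal protein genes that host snoRNAs appear in both of the last lists on the x axis.

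Messenger RNAs known as targets of nonsense-mediated decay were more often higher than lower in each stress, but they also include direct targets of stress transcription factors. Of 12 tested, 9 were higher after 2 h in H2O2 and 7 after 7 h, with 5 and 7 at the same times of KCl. Those called lower were 2 and 3, then 2 and 2. Of all genes 27.3% and 39.4% were higher in H2O2, and 27.2% and 37.2% in KCl. The shares of all genes called lower were 26.5% and 31.1%, then 27% and 31.6%. Each heat treatment gave 7 higher and 3 lower of the 12. Against these stood 35.4% and 35.7% of all genes at 44 °C and 31.7% and 31.9% at 42 °C. Smg1, Smg5, Upf1 and Upf2 of these 12 are also among the factors below. Atf3, a stress-induced transcription factor, rose by 5.06 (SE 0.09) at 2 h of H2O2 and Upp1, uridine phosphorylase, by 5.31 (SE 0.24) at 7 h. Tbl2 fell by 1.23 (SE 0.08) at 7 h. Factors of the pathway are given next. Of 19 NMD and exon junction genes 4 were higher and 1 lower after 2 h in H2O2 and 7 and 5 after 7 h. The shares of all genes were 27.3% and 26.5%, then 39.4% and 31.1%. KCl gave 5 and 4, then 11 and 3, against 27.2% and 27%, then 37.2% and 31.6%, of all genes. At 7 h of KCl Smg1, the kinase of UPF1, rose by 1.53 (SE 0.15), Upf2 by 1.07 (SE 0.08), and Magohb, an exon junction protein, fell by 1.01 (SE 0.10). At 44 °C 8 were higher and 8 lower, against 35.4% and 35.7% of all genes. At 42 °C the counts were 11 and 2, against 31.7% and 31.9%.

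Proteins that assemble snoRNAs into particles came next. Of 19, 15 were higher at 42 °C, led by Nhp2 (0.77, SE 0.05), and 1 was lower, against 31.7% and 31.9% of all genes. At 7 h of H2O2 14 were higher and 1 lower, against 39.4% and 31.1%. The rises there were led by Ruvbl2 (1.05, SE 0.07), a helicase of the assembly complex. At 7 h of KCl 10 were lower, with Znhit6 at -0.86 (SE 0.10), and 3 were higher, led by the cap methylase Tgs1 (0.96, SE 0.06). Of all genes 31.6% were lower and 37.2% higher. The treatments of 2 h gave 6 higher and 5 lower at 44 °C, against 8 and 1 in H2O2 and 4 and 1 in KCl. The shares of all genes were 35.4% and 35.7%, then 27.3% and 26.5%, then 27.2% and 27%.

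The genes beside these hosts changed with them in some comparisons and otherwise in others. Gas5 overlaps Zbtb37 by 264 bases on the opposite strand, and no source used here says whether the counting used strand, so reads in the shared stretch cannot be told apart. Zbtb37 was at 1.83 and 2.35 TPM in the controls and at 4.15 and 3.71 TPM at 7 h of H2O2, a rise of 0.98 (SE 0.18) beside one of 0.94 for Gas5. Slc3a2, the heavy chain of amino acid transporters, starts 117 bases from Snhg1 on the opposite strand. It rose with Snhg1 at 2 h (1.72, SE 0.06) and 7 h (1.63, SE 0.06) of H2O2, but at 42 °C it was at -0.30 (SE 0.05) while Snhg1 rose by 1.37. Trnau1ap, 738 bases from Snhg12, was called higher at 44 °C (0.59, SE 0.06) and at 42 °C (0.24, SE 0.06). In H2O2 it was at -0.16 and 0.10, not called, where Snhg12 rose by 1.19 and 2.05.

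**Figure D4:**
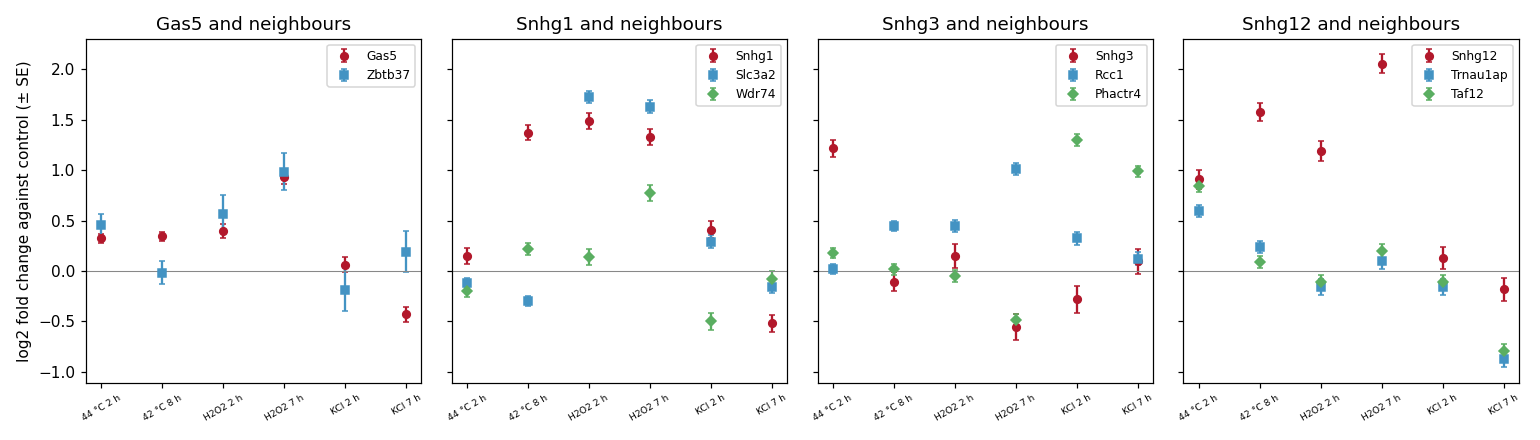
Log2 fold change against control (y axis, bars ± SE) of Gas5, Snhg1, Snhg3 and Snhg12 and 1 or 2 genes near each (colours and symbols) in 6 stresses (x axis). Slc3a2 lies with Snhg1 in H2O2 (1.72 against 1.49 at 2 h) and apart from it at 42 °C (-0.30 against 1.37).

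The study looked for transcription that runs past the end of a gene (downstream-of-gene transcripts) and on into the next gene (read-in). Of 6399 gene pairs in the authors' deposited tables, 7 held 1 of these hosts, and Snhg5 was in none. Read-in was called in 0 of 112 cases of these pairs, and over all pairs and libraries in 1.38%, so that a count of 0 sets these pairs apart from no others; the highest read-in estimate, a ratio, was 0.0267, for Phactr4 into Snhg3. Transcription past the gene end was called for Snhg1 towards Wdr74 in all 16 libraries, controls included, and for Taf12 towards Snhg12 in 12. Serpinc1 towards Gas5 was called in 2, Nacad towards Snhg15 in 2, and Snhg8 towards Mettl14 in 1. Phactr4 towards Snhg3 was called in 2 and Snhg3 towards Rcc1 in 3, and for both of these pairs the 2 libraries of 2 h of KCl were among them. Over all pairs and libraries the authors' tables held this call in 28.5% of cases, against 38 of 112 for the 7 pairs.

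Genes whose 6 changes lay nearest to those of each host were ranked by the root mean square difference in log2 fold change. Among 9239 genes whose average log2 CPM reached 3 in both experiments, Rars (cytosolic arginyl-tRNA synthetase, 0.13) and Nop56 (a core snoRNP protein, itself a snoRNA host, 0.15) lay nearest to Gas5. The median gene was at 0.66. Snhg8 and Snhg15 did not reach this level in both, so they could not be ranked as near to another host. They were themselves compared with 9240 genes. For Snhg15 the nearest was Snhg12 (0.51, with a median gene at 1.63), followed by Zfand2a (0.52). Snhg12 lay nearest to Zfand2a, a stress-induced zinc finger protein (0.36), and Snhg1 to Csf1, a macrophage growth factor (0.29). Nearest to Snhg3 was Ormdl2 (0.19), to Snhg5 Chchd4 (0.28) and to Snhg8 Ccm2 (0.11). These distances rest on 6 comparisons, 4 of which share 1 control group and 2 another, and are descriptions. Between pairs of the 7 the distance ran from 0.42 for Gas5 and Snhg8 to 1.74 for Snhg3 and Snhg15.

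Ribosome footprints of the 7, which bear on whether these RNAs were engaged by ribosomes, were not analysed here.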

How the data were processed

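The members and gene lists were chosen with earlier results of these data known. Expected counts per gene and TPM values were deposited by the authors; per the submitters' processing notes the tools were STAR, RSEM and Bowtie with build mm10. No source used here gives their versions or strand settings. Libraries were made from polyadenylated RNA with a kit of New England Biolabs, per the labels. The read-in estimate is a ratio in the authors' deposited table, next to their true or false calls. Of the columns with per-sample values, 12 footprint columns fitted no sample label and stayed out.

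Each experiment was fitted separately with all its libraries (6 and 10) in edgeR 4.0.16: expected counts rounded, filterByExpr, TMM normalization, quasi-likelihood F test, Benjamini-Hochberg adjustment over all genes tested, threshold 0.05. The standard error is the absolute log2 fold change divided by the square root of F. TPM served for levels only. Alternatives were RLE normalization, no filter, DESeq2 1.42.0, limma 3.58.1 on log2(TPM + 1), the compared groups alone, a replicate block, each library left out, and Snhg3 and Rcc1 summed. The contrasts of H2O2 with KCl were added after seeing the data. The scripts were tested on simulated data. Named genes are the 7, the other noncoding hosts, gene neighbours, the nearest genes in pattern, and of each other list at most the 2 largest rises and 2 largest falls per comparison; Cd68, Tubb3, Myod1 and Ptprc were named after their values were seen. Start-site windows come from RefSeq tables of GRCm38.p6 (250 bases before and 50 after the start), in which all 7 symbols matched. 1 gene near a member is not reported here.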

Additional observations from a re-analysis of the deposited data

Results flagged for a closer look

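The effect of a stress against its control differed between 2 stages of the same stress, by the direct contrast in edgeR (adjusted p under 0.05), in 18 cases, 6 of the 7 members in each contrast. Of all genes tested 75.1% were called in the heat contrast, 73.4% in that of H2O2 and 68.8% in that of KCl, and the counts are read against these shares. Comparing the 8 h treatment at 42 °C with the 2 h treatment at 44 °C, the log2 effects differed by 1.22 for Snhg1, -1.32 for Snhg3, 0.58 for Snhg5, -0.38 for Snhg8, 0.67 for Snhg12 and 0.87 for Snhg15. Between 7 h and 2 h of H2O2 they differed by 0.54 for Gas5, -0.70 for Snhg3, 0.77 for Snhg5, 0.73 for Snhg8, 0.87 for Snhg12 and 0.89 for Snhg15. Between 7 h and 2 h of KCl they differed by -0.49 for Gas5, -0.93 for Snhg1, 0.38 for Snhg3, -0.28 for Snhg5, -0.31 for Snhg12 and -0.78 for Snhg15. Of the 18, 14 were kept in every refit of the single genes; the exceptions are Snhg8 between the heat treatments and Snhg3, Snhg5 and Snhg12 between the times of KCl.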

How the results depend on the processing

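The number of members called stayed within 1.5 times the reported count in all 11 comparisons; it ranged from 4 to 6 against 6 for KCl 7 h over 2 h, from 2 to 4 against 3 for 2 h of KCl and from 5 to 7 against 5 at 42 °C. With a replicate block, which rests on shared numbers only (same-numbered deviations correlated at -0.10 to 0.21), 75 of 77 values kept their call. Snhg1 at 44 °C became called (0.15, adjusted p = 0.0454), and Snhg8 in H2O2 over KCl at 2 h was lost (0.42, adjusted p = 0.0509). DESeq2 lost 4 calls: Snhg8 between the heat treatments and in H2O2 over KCl at 2 h, and Snhg5 and Snhg12 between the times of KCl. Summing Snhg3 with Rcc1, which holds most of the counts, mainly returns the change of Rcc1 and bears little on the stability of Snhg3; the sums opposite in sign to Snhg3 were 0.38 at 42 °C, 0.85 at 7 h of H2O2, 0.24 at 2 h of KCl, 0.15 for 42 °C over 44 °C, 0.45 for H2O2 7 h over 2 h, -0.13 for KCl 7 h over 2 h and 0.74 for H2O2 over KCl at 7 h. In the limma refit on log2(TPM + 1) 2 uncalled values reversed, Snhg15 at 2 h of KCl (-0.0086) and Snhg3 at 7 h of KCl (-0.027). In the same refit 6 values became called. Leaving out single libraries reversed uncalled values only. Snhg8 ranged from -0.14 to 0.23 at 44 °C, from -0.29 to 0.22 after 2 h in H2O2, and from -0.49 to 0.017 after 7 h in KCl. Snhg5 ranged from -0.21 to 0.031 (H2O2, 2 h), Snhg15 from -0.070 to 0.29 (KCl, 2 h), Snhg3 from -0.13 to 0.28 (KCl, 7 h) and Gas5 from -0.024 to 0.064 (42 °C over 44 °C). The cause of these reversals was not tested. Planned footprint and translational efficiency results for the members were not run. Low counts limit Snhg15 in KCl, at 49 to 107 per library.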
